A study of Mus musculus with 6 samples.

Results

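The genes described here are 31 regulators of growth arrest and cell death: the tumour suppressor p53 and its direct target genes, inhibitors of cyclin-dependent kinases, the BCL2 family, and the caspase and death receptor machinery. They were picked by name, with earlier results of these data known. Each was represented by the probe set that carries its symbol alone, the brightest where several do. This gave 28 genes of 22180 tested. Trp53, Bax and Gadd45a were not analysed here. RNA came from Raw 264.7, a mouse monocyte and macrophage line derived from a tumour induced by Abelson leukaemia virus. All cells were expanded in medium containing 10% serum, starved, and then kept in 2% serum. One group of 3 samples is labelled as given interleukin 33 (IL-33), an alarmin of the IL-1 family, at 50 ng/ml, and the other group of 3 is labelled PBS, the vehicle; no source used here gives the length of treatment. All samples are of 1 cell line. The labels do not say whether a group's samples are separate cultures, so a p-value here reflects only the spread among 3 samples a group, which may be technical.

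p53 is a transcription factor that accumulates after DNA damage and other stress and switches on genes for cell cycle arrest, repair and apoptosis. Apoptosis by the mitochondrial route is set by the BCL2 family: the effectors BAX and BAK open the outer mitochondrial membrane, survival proteins such as BCL2 and MCL1 hold them in check, and BH3-only proteins such as BIM and PUMA release that hold. Cytochrome c then assembles APAF1 and caspase-9 into the apoptosome, while death receptors such as FAS start a second route at the cell surface. In macrophages these proteins control how long an activated cell survives.

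Directions are those of the sample titles, as the log2 value under IL-33 minus that under PBS. The descriptions hold array names that go against the titles, with IL on the PBS arrays and P on the IL-33 arrays; if the titles were exchanged, every sign given here would reverse. Correlations across genes were 0.9972 to 0.9980 within a group and 0.9967 to 0.9971 between groups. Of the 12 macrophage markers listed all were measured; their mean log2 level was 11.18 on each PBS array and 11.21 to 11.24 on the IL-33 arrays, and 1 of them, the IgG receptor Fcgr1, rose. The groups were apart in 7 of the 12, 4 higher and 3 lower. This compares with 20.3% of all genes and 29.9% of genes with a mean signal at or above the median. The allograft inflammatory factor Aif1 differed by 0.32 and the surface receptor Adgre1 (F4/80) by -0.29, without passing. The mean level of 10 mast cell and basophil markers was 4.22 to 4.33 in PBS and 4.34 to 4.38 in IL-33. Of these, 1 rose, the histamine-forming enzyme Hdc, with a difference of 0.77, and no other marker of this list had groups apart. The median difference of the 10 was 0.02, with 4 below 0. No gene passed among 8 lymphocyte, 10 fibroblast and 10 endothelial and epithelial markers, and 1 gene of each list had an unadjusted p under 0.05 (limma). The part of these markers in the results was not tested. The arrays carry no detection calls, and their number limits the precision.

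None of the 28 genes passed an adjusted p under 0.05 (limma, Benjamini-Hochberg over all genes), where 0.591% of all genes did, 0.275% higher and 0.316% lower. At an unadjusted p under 0.05, 10 of the 28 passed, with 6 above and 4 below PBS, against 13.2% of all genes, 6.42% above and 6.74% below. The 3 values of one group lay wholly outside those of the other in 14 of the 28, 9 higher and 5 lower, against 20.3% of all genes, 10.3% higher and 10.1% lower. Brighter probe sets vary less between arrays, and 26 of the 28 had a mean signal at or above the median of all genes. Among these the groups were apart in 13, 8 higher and 5 lower, against 29.9% of genes in that range, 16.7% higher and 13.2% lower. The median difference was 0.02 on the log2 scale, against -0.01 for all genes, and 19 of 28 lay above 0, against 47.9% of all genes. Without 1 array at a time this median ranged from 0.016 to 0.072, the latter without IL-33 replicate 2, and with arrays centred on the 75th percentile it was 0.0061, against -0.02 for all genes. The differences were small, with a median absolute difference of 0.105, against 0.073 for all genes. The 95% confidence interval of 27 of the 28 lay within a 1.5-fold change in either direction, and the exception was Eda2r. The same held for 21443 of all 22180 genes, so this count is not particular to the 28. Bulk RNA of this kind cannot tell a change per cell from a change in the share of cells that express a gene. With a prior variance that is trended and robust, 5 of the 28 passed, Eda2r, Sesn1, Ccng1 and Tnfrsf10b higher and Bcl2l11 lower, where 4.51% of all genes did, 2.39% higher and 2.12% lower.

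**Figure D1:**
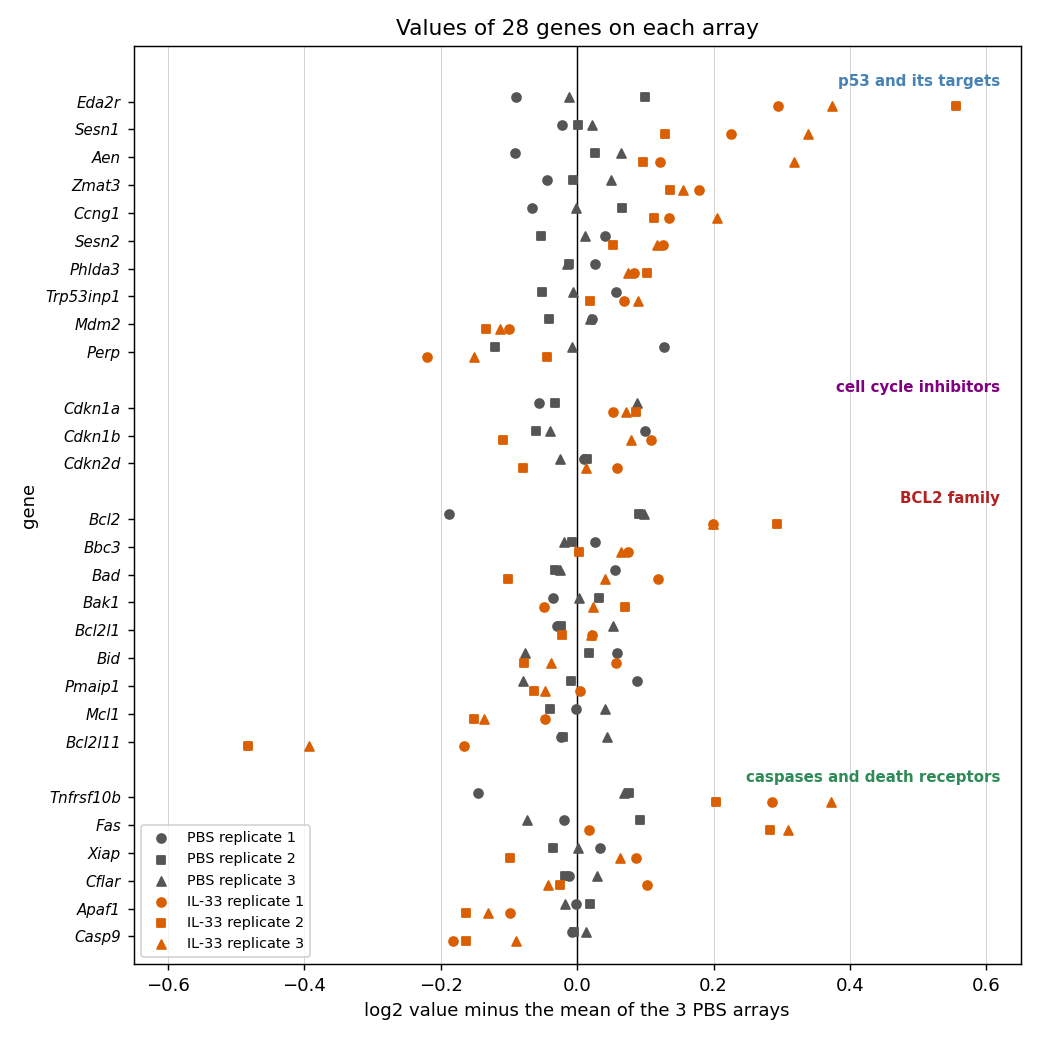
Log2 value of each gene on each array (horizontal axis) after subtracting the mean of its 3 PBS arrays; grey points are PBS, orange points IL-33, and the marker shape gives the replicate. In the p53 class the orange points of 7 of 10 genes lie wholly to the right of the grey ones, while those of Mdm2 lie to the left.

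Values of the p53 class lay mostly above PBS. This class leaves out p53 targets that were placed in the other classes, such as Cdkn1a, Bbc3, Pmaip1, Fas and Tnfrsf10b. Among those named, only Tnfrsf10b had groups that did not overlap, and only Pmaip1 had a difference below 0. Genes of those classes not named here may also be targets, such as Apaf1, which differed by -0.13 with groups apart. Of the 10 measured genes of the class, 8 had a difference above 0, against 47.9% of all genes. The class median was 0.12 against -0.01 for all genes. The groups did not overlap in 8 of the 10, with 7 higher in IL-33, against 10.3% of all genes in that direction; among the 8 brighter members 6 were higher without overlap, against 16.7% of genes in that range. None passed over all genes (limma), and 5 had an unadjusted p under 0.05, 4 above and 1 below PBS, against 13.2% of all genes, 6.42% above and 6.74% below. The class median on each IL-33 array, relative to the PBS mean, was 0.12, 0.10 and 0.14, so that the 3 arrays gave like values.

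Eda2r, a receptor of the TNF receptor family that binds the A2 form of ectodysplasin, had the largest difference. Its log2 values were 5.19, 5.38 and 5.27 on the PBS arrays and 5.57, 5.83 and 5.65 on the IL-33 arrays. The lowest IL-33 value was above the highest PBS value, and the difference was 0.41 ± 0.08 (log2, SE), or 1.33-fold with a 95% interval of 1.15 to 1.52. The adjusted p was 0.105 (limma), and 0.123 to 0.303 when 1 array was left out. Its values lie near the array medians of 5.31 to 5.36, where RMA can compress differences. Whether it did so here was not tested.

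Sesn1 encodes sestrin 1, a stress-induced inhibitor of mTORC1 signalling. It measured 8.22, 8.24 and 8.26 in PBS and 8.47, 8.37 and 8.58 in IL-33. The PBS values were close together and all 3 IL-33 values were above them, with a difference of 0.23 ± 0.06 (log2, SE) and an adjusted p of 0.202 (limma). Its paralogue Sesn2, which also acts on mTORC1, had a smaller difference of 0.10 ± 0.05 (log2, SE), again without overlap.

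Zmat3, a zinc finger protein that binds RNA, measured 9.03, 9.07 and 9.13 in PBS and 9.26, 9.21 and 9.23 in IL-33. Ccng1, which encodes cyclin G1, a partner of MDM2 and protein phosphatase 2A, measured 11.78, 11.91 and 11.85 in PBS and 11.98, 11.96 and 12.05 in IL-33. In both genes every IL-33 array was above every PBS array, by means of 0.16 and 0.15, with adjusted p of 0.253 and 0.330 (limma). Aen, an exonuclease that acts in apoptosis, measured 7.70, 7.82 and 7.86 in PBS and 7.92, 7.89 and 8.11 in IL-33. Phlda3, a pleckstrin homology protein that restrains AKT, differed by 0.09 ± 0.05 (log2, SE). The groups were apart in both, but the gap between the nearest arrays of Aen was smaller than the spread within either group. Trp53inp1, a p53-induced nuclear protein, differed by 0.06 ± 0.05 (log2, SE) with overlapping groups.

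The 2 genes of this class with a difference below 0 were Mdm2 and Perp. Mdm2 encodes the ubiquitin ligase that marks p53 for destruction and is itself a target of p53, which makes it a negative feedback arm. It measured 11.07, 11.00 and 11.06 in PBS and 10.95, 10.91 and 10.93 in IL-33. All 3 IL-33 values were below the PBS values, opposite in direction to Ccng1, Zmat3 and Sesn1, with a difference of -0.12 ± 0.05 (log2, SE) and an adjusted p of 0.371 (limma). Perp, a membrane protein of desmosomes that also acts in p53-dependent apoptosis, differed by -0.14 ± 0.08 (log2, SE), with values of 4.61 to 4.96 and overlapping groups.

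The promoter stretches of 6 of these genes are given to set the p53 recognition sequence beside the values. p53 binds a pair of 10-base half-sites, and the consensus half-site, which reads the same on both strands, was searched for in the 250 bases before each start in a RefSeq table of GRCm38.p6. It occurs in 7.13% of the 32851 promoters of that table and, counting any start of a gene, in 8.20% of its 27025 genes. For these 31 genes, starts on 1 chromosome were left out of the counts, so a match there would be missed. The shares over all promoters and genes keep that chromosome. Of the 31 genes, 26 had a start that was counted, and 9 had a match. Among the 4 classes, 6 of 9 p53 genes, 2 of 3 cell cycle inhibitors, 1 of 9 BCL2 family genes and 0 of 5 caspase and death receptor genes had one. These counts include Trp53, Gadd45a and Bax, which have no value here. Of the measured genes with a counted start, 6 of 23 had a match. A match is a description of the letters and not a measured site, and many p53 sites lie outside this window. Capitals mark the half-site, and each stretch runs 5′ to 3′ along the gene, ending at the base before the start. Ccng1, Sesn1 and Aen are shown as genes whose IL-33 values were above PBS, Mdm2 as one whose values were below, Cdkn1a as one whose groups overlapped, and Eda2r as the gene with the largest difference, which had no match here.
Ccng1, chr11:40755287-40755536, minus strand: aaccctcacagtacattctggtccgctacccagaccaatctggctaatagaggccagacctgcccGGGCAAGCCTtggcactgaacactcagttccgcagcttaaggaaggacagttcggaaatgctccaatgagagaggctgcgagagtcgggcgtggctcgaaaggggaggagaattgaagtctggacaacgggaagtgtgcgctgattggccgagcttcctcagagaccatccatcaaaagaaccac
Sesn1, chr10:41887189-41887438, plus strand: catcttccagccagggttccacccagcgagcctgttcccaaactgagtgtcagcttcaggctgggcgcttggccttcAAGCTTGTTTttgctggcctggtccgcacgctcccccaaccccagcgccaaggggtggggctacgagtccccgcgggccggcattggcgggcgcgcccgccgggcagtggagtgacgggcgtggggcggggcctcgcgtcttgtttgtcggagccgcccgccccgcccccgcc
Aen, chr7:78895808-78896057, plus strand: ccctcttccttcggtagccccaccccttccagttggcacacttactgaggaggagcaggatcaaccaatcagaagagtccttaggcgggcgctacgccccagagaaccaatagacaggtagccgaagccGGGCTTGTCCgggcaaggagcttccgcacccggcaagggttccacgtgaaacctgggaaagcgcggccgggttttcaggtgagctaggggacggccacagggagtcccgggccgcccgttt
Mdm2, chr10:117710759-117711008, minus strand: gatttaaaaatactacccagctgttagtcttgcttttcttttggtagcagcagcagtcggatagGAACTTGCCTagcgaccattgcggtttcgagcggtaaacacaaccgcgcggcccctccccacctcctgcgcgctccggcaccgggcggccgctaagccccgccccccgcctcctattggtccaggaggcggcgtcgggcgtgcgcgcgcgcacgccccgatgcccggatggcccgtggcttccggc
Cdkn1a, chr17:29090729-29090978, plus strand: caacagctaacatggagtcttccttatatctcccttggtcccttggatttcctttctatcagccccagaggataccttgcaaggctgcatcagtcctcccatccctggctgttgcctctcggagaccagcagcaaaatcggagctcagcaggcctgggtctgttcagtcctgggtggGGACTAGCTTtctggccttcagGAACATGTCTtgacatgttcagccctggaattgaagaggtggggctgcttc
Eda2r, chrX:97377210-97377459, minus strand: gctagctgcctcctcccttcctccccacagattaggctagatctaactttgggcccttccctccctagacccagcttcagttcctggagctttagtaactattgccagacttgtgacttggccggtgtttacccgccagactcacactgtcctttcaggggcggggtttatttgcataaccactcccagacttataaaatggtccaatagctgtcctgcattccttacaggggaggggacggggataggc

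Cdkn1a had 2 half-sites, at bases -73 to -64 and -51 to -42 before its start, and the other 4 genes with a match shown had 1 each, at -185 in Ccng1, -173 in Sesn1, -121 in Aen and -186 in Mdm2, counted to the first base of the match. Sesn1, Aen and Cdkn1a each have a further start in the table whose window held no match. Genes with a half-site were thus found on both sides of 0, with Ccng1, Sesn1 and Aen above and Mdm2 below. Cdkn1a was at 0.07, and Cdkn2d, the other measured gene with a match among those counted, was at -0.002.

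The cell cycle inhibitors showed no separation. Cdkn1a encodes p21, the cyclin-dependent kinase inhibitor through which p53 arrests the cell cycle, and is the best-known p53 target. It measured 12.56, 12.58 and 12.70 in PBS and 12.67, 12.70 and 12.69 in IL-33. PBS replicate 3 was as high as the IL-33 arrays, so the groups overlapped, and the difference was 0.07 ± 0.06 (log2, SE) with a 95% interval of -0.06 to 0.20. Its mean level was at percentile 99.7 of all genes, below the highest array values of 13.62 to 13.66. Whether bright signals compress at that level was not tested. Cdkn1b, which encodes p27 and holds cells in quiescence, differed by 0.03 with an interval of -0.16 to 0.21. Cdkn2d, which encodes the CDK4 and CDK6 inhibitor p19INK4d, differed by -0.002 with an interval of -0.13 to 0.13. The adjusted p of these genes was 0.669, 0.924 and 0.994 (limma).

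**Figure D2:**
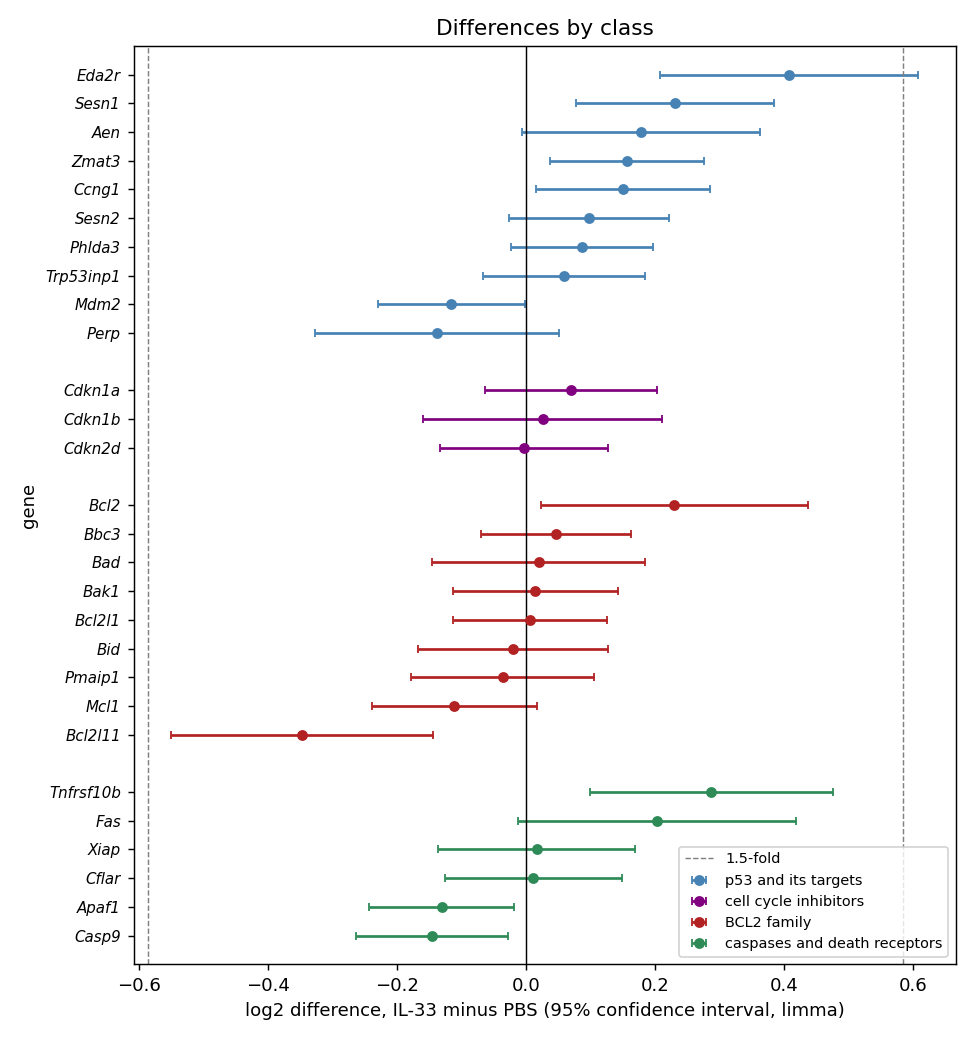
Log2 difference of each gene, IL-33 minus PBS (horizontal axis), with its 95% confidence interval from limma, coloured by class; dashed lines mark a 1.5-fold change. The interval of Eda2r alone crosses a dashed line, and the intervals of the 3 cell cycle inhibitors all include 0.

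In the BCL2 family 1 survival gene lay above PBS and another survival gene and 1 BH3-only gene lay below, while the other 6 measured members overlapped between the groups; 3 of 9 is near the 29.9% of brighter genes whose groups were apart. None of 9 passed (limma), 1 above and 1 below PBS had an unadjusted p under 0.05, against 13.2% of all genes, and the class median was 0.01; it was -0.03 without IL-33 replicate 1. Bcl2l11 encodes BIM, a BH3-only protein that binds every survival member of the family and is needed for death after withdrawal of growth factors. It measured 8.43, 8.43 and 8.50 in PBS and 8.29, 7.97 and 8.06 in IL-33. Every IL-33 value was below every PBS value, with IL-33 replicate 1 nearest to PBS, and the difference was -0.35 ± 0.09 (log2, SE), a level 1.27-fold lower. The adjusted p was 0.156 (limma), ranged from 0.068 to 0.396 when 1 array was left out, and was 0.0457 when genes below the median level were not tested. In that setting Bcl2l11 was the single gene of the 26 kept that passed, where 6.85% of all genes did, 3.24% lower.

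Bcl2, the founding survival gene of the family, measured 9.41, 9.69 and 9.69 in PBS and 9.79, 9.89 and 9.79 in IL-33. The IL-33 arrays were above the PBS arrays, PBS replicate 1 was well below the other PBS arrays, and the difference was 0.23 ± 0.09 (log2, SE) with an adjusted p of 0.330 (limma). A second, dimmer probe set of Bcl2 differed by 0.08 ± 0.09 (log2, SE). Mcl1, a short-lived survival protein, measured 10.92, 10.89 and 10.97 in PBS and 10.88, 10.77 and 10.79 in IL-33. IL-33 replicate 1 was only just below the lowest PBS array, the difference was -0.11 ± 0.05 (log2, SE), and the adjusted p was 0.442 (limma). The dimmer probe set of Mcl1 differed by 0.04 ± 0.13 (log2, SE), with the opposite sign. Bcl2l1, which encodes the survival protein BCL-XL, differed by 0.01 with a 95% interval of -0.11 to 0.13.

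The effector Bak1, which forms pores in the outer mitochondrial membrane, differed by 0.01 with a 95% interval of -0.11 to 0.14. The other BH3-only genes also had overlapping groups. Bid, which links death receptors to mitochondria once caspase-8 has cut it, differed by -0.02, and Bad, which growth factor kinases silence by phosphorylation, by 0.02. Bbc3 and Pmaip1 encode PUMA and NOXA, the BH3-only proteins induced by p53, and differed by 0.05 and -0.04. Standard errors of these 5 genes lay between 0.05 and 0.07 (log2), and all their intervals include 0. The p53 targets of the BCL2 family that were measured therefore did not show the separation seen in Eda2r, Sesn1 and Zmat3; the difference between the classes was not tested.

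The 2 death receptors had means above PBS, and the 2 apoptosome genes had means below it. Tnfrsf10b, which encodes the mouse receptor for the death ligand TRAIL and is a p53 target, measured 8.46, 8.68 and 8.67 in PBS and 8.89, 8.81 and 8.98 in IL-33. All IL-33 values were above all PBS values, with PBS replicate 1 lowest, and the difference was 0.29 ± 0.08 (log2, SE), or 1.22-fold. Its adjusted p was 0.194 (limma). Fas, the receptor for FAS ligand and also a p53 target, measured 6.31, 6.42 and 6.25 in PBS and 6.35, 6.61 and 6.64 in IL-33. IL-33 replicate 1 lay within the PBS range, so the groups overlapped, and the difference was 0.20 ± 0.09 (log2, SE).

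Apaf1, the scaffold of the apoptosome, measured 9.01, 9.03 and 9.00 in PBS and 8.92, 8.85 and 8.88 in IL-33. Casp9, the caspase that the apoptosome activates, measured 8.75, 8.75 and 8.77 in PBS and 8.57, 8.59 and 8.66 in IL-33. Both were below PBS on every IL-33 array, by 1.09-fold and 1.11-fold, with adjusted p of 0.311 and 0.283 (limma). Xiap, which inhibits caspase-9 and caspase-3, differed by 0.02 with a 95% interval of -0.14 to 0.17. Cflar, which encodes the caspase-8 regulator FLIP, differed by 0.01 with an interval of -0.12 to 0.15. None of the 6 genes of this class passed (limma), and 3 had an unadjusted p under 0.05, 1 above and 2 below PBS, against 6.42% and 6.74% of all genes; the class median was 0.01, with 4 above and 2 below 0.

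**Figure D3:**
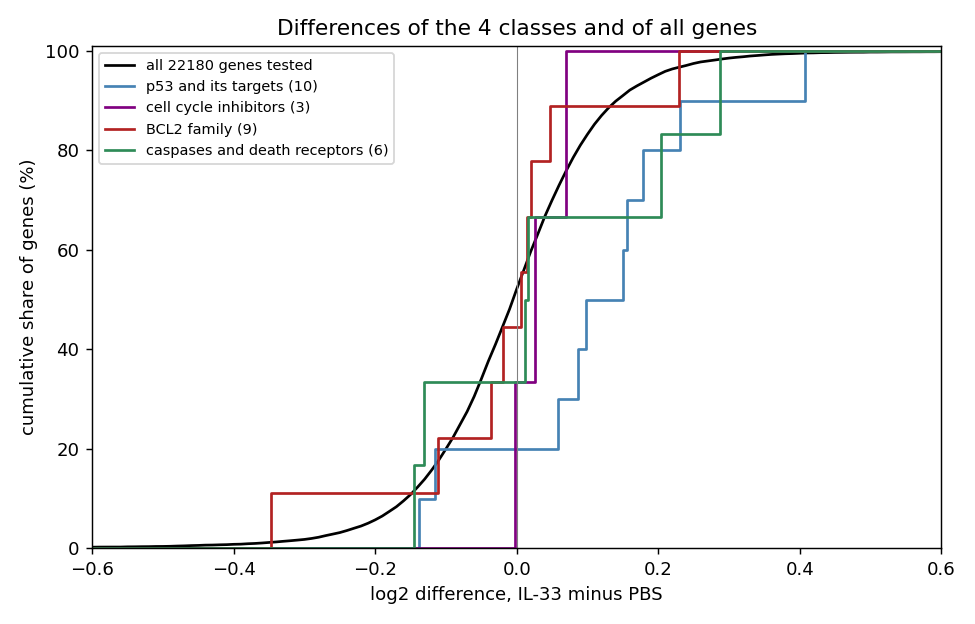
Cumulative share of genes (vertical axis, percent) by log2 difference, IL-33 minus PBS (horizontal axis), for all genes tested (black) and for the 4 classes. The p53 line runs to the right of the black line over most of its length, around its median of 0.12, while the BCL2 family line crosses it.

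Among arrays, IL-33 replicate 2 was the lowest of its group in 19 of the 28 genes, replicate 1 in 6 and replicate 3 in 3. Replicate 2 was the highest IL-33 array for Eda2r and Bcl2, and the lowest for Bcl2l11, Sesn1 and Mcl1. In PBS, replicates 1, 2 and 3 were lowest in 12, 9 and 7 genes.

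Further genes of the pathways came from lists set by function. Of 28 other p53 pathway genes measured, of 30 listed, none passed (limma); at an unadjusted p under 0.05, 4 were higher and 1 lower, near the 13.2% of all genes, and the median difference was -0.02. The smallest p belonged to Gadd45b, a stress-induced relative of Gadd45a, at -0.37 ± 0.06 (log2, SE), with an adjusted p of 0.0618 (limma). It was followed by the repair endonuclease Ercc5, at 0.24 ± 0.06, and the translesion polymerase Polk, at 0.17 ± 0.05 (log2, SE), with adjusted p of 0.156 and 0.200 (limma). Ercc5 measured 7.45, 7.43 and 7.58 in PBS and 7.73, 7.69 and 7.73 in IL-33, again with the groups apart. In this wider list 13 of 28 lay above 0, against 8 of the 10 measured genes of the p53 class and 47.9% of all genes. The groups were apart in 5 of the 28, or 17.9%, against 20.3% of all genes.

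Of 27 other apoptosis genes measured, of 33 listed, 1 fell and none rose, against 0.316% and 0.275% of all genes. At an unadjusted p under 0.05 (limma), 3 were higher and 2 lower, 18.5% of the list against 13.2% of all genes. The groups were apart in 6, or 22.2%, against 20.3% of all genes. The gene that fell was Tnfrsf1b, which encodes TNFR2, the TNF receptor without a death domain. It measured 10.82, 10.67 and 10.75 in PBS and 10.12, 10.11 and 9.88 in IL-33. The lowest PBS value was well above the highest IL-33 value, and the fall was 1.64-fold (adjusted p = 0.0206, limma). It still passed without IL-33 replicate 1 and was lost without any one of the other 5 arrays. The BH3-like mitophagy receptor Bnip3 differed by -0.52 ± 0.10 and the death ligand gene Tnfsf10, which encodes TRAIL, by 0.36 ± 0.10 (log2, SE), with adjusted p of 0.0866 and 0.190 (limma). Tnfsf10 measured 4.84, 4.56 and 4.95 in PBS and 5.18, 5.13 and 5.12 in IL-33, all below the array medians of 5.31 to 5.36. The ligand and its receptor Tnfrsf10b both lay above PBS on every IL-33 array without passing. By contrast, the ligand gene Fasl and its receptor Fas differed by -0.19 and 0.20, both with overlapping groups. The list median was 0.01, with 15 of 27 above 0, against 47.9% of all genes.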

How the data were processed

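Biotin-labelled cDNA from the total RNA of 6 samples was measured on whole-transcript arrays, per the labels' protocols. The deposited table holds log2 expression values made by the authors with RMA (background correction, quantile normalization, median polish), per the submitters' processing notes, which give no version. RMA equalises the arrays' distributions and so hides any shift common to most genes. Of 41345 probe sets, 23521 carried 1 symbol in the platform annotation, and no gene was named from the others. The 22180 genes were fitted with limma 3.58.1 in R 4.3.3 (lmFit, eBayes, 1 coefficient for the group, no filter), and p-values were adjusted by Benjamini-Hochberg and called under 0.05; SE is the moderated standard error of a difference. The fit was tested on simulated data. Groups come from the sample titles. The named genes are all 28 measured members and, of the 2 pathway lists, those that passed or the 3 with the smallest p. Fasl was added beside its receptor Fas. Members and lists were chosen with earlier results of these data known. Promoters are RefSeq's (GRCm38.p6), and figures used matplotlib 3.10.9. Alternatives were another quantile normalization, 75th percentile centring, a filter on dim genes, averaging a gene's probe sets, another prior variance, array weights, a replicate block, all probe sets, and each array left out.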

Additional observations from a re-analysis of the deposited data

How the results depend on the processing

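None of the 28 genes passed with the further quantile normalization, 75th percentile centring, mean of probe sets, array weights, replicate block, all probe sets, or without any one array. With the trended and robust prior variance 4 were higher and 1 lower, as were 1 and 1 other p53 pathway genes, and 2 other apoptosis genes were lower. Among genes at or above the median level, where 6.85% passed, 1 of the 26 members kept was lower. Eda2r and Perp lie below that level and were not tested there. In the same setting 2 other p53 pathway genes were higher and 1 lower, and 2 other apoptosis genes were lower. The 1 apoptosis gene that fell was lost with the replicate block and over all probe sets (0 each), and 0 to 1 passed without 1 array. Deviations of same-numbered arrays correlated at r = 0.082, 0.088 and 0.022, too weakly to treat the numbers as pairs, though pairing is not excluded by this; over all genes 21 passed with the block and 131 without. The p53 class median was 0.108 with 75th percentile centring and 0.101 to 0.144 without 1 array; the BCL2 family median was -0.030 to 0.0094 and that of all 28 genes 0.016 to 0.072, or 0.0061 with the same centring, which gave the BCL2 family -0.010, the caspase and death receptor class -0.0026 and all genes -0.022. Signs turned only for genes near 0. Bcl2l1 was -0.0027 with quantile normalization and -0.010 with 75th percentile centring, which also gave Bak1 -0.0023, Cflar -0.0052 and Xiap -9.1e-05. Without 1 array, Bad ranged from -0.030 to 0.080, Bak1 from -0.013 to 0.046, Bcl2l1 from -0.0082 to 0.033, Bid from -0.058 to 0.0098, Cdkn1b from -0.015 to 0.094, Cdkn2d from -0.033 to 0.036, Cflar from -0.034 to 0.039, Pmaip1 from -0.075 to 0.0084 and Xiap from -0.018 to 0.074. The cause was not tested.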
